A study of Mus musculus with 6 samples.

Results

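The S100 genes encode small EF-hand calcium-binding proteins, and 10 of them (S100a1, S100a3, S100a4, S100a6, S100a8, S100a9, S100a10, S100a11, S100a13 and S100a16) were followed through RNA-seq of 6 mouse bone marrow samples. These 10 members were chosen by family name among the 55487 genes of the table. They are not the whole family: 7 further genes that carry an S100 name are described with the related lists. The libraries came from GFP+ marrow cells of femora and tibiae of C57BL/6 mice, 3 labelled PBS and 3 labelled pIpC. The donor genotype was CD45.2(+) Mx1-Cre Brd9fl/fl MA9 in both groups, so the PBS libraries also carry the floxed alleles, the Cre transgene and MA9, the MLL-AF9 fusion, which causes acute myeloid leukemia in mice. Each CD45.1(+) CD45.2(-) recipient was irradiated with 2 doses of 450 cGy according to the labels and received 1000 leukemic marrow cells through the tail vein. From the following day PBS or 20 mg/kg pIpC was given every second day, 3 times in all, and marrow was taken on day 10 after injection. The study's methods give an age of 6 weeks for the mice that received the leukemic cells.

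The comparison asks how gene expression in transplanted MLL-AF9 leukemia differs after pIpC. This synthetic double-stranded RNA raises interferon and thereby switches on Cre under the Mx1 promoter. Mx1 is an interferon-response promoter that is active in many cell types besides leukemic cells. No group received pIpC without Cre or without floxed alleles, so pIpC itself and recombination of Brd9 cannot be told apart. Brd9, the targeted gene and a subunit of a SWI/SNF chromatin remodelling complex, had normalized counts of 1927, 1946 and 1632 in the PBS libraries and of 2036, 2263 and 2011 in the libraries labelled pIpC. The libraries labelled pIpC were the higher ones in each pairing of libraries (log2 fold change 0.20, SE 0.13, limma adjusted p = 0.259; exact permutation p = 0.1, the smallest that 3 against 3 allows, two-sided). With each library's dependence on transcript length subtracted, the direction turned and the log2 fold change was -0.013 (limma adjusted p = 0.916). Cre removes only some of the Brd9 exons and the count covers the whole gene, so the count is a weak check of the label. The study reports reduced Brd9 mRNA in marrow of its knockout mice without leukemia. For leukemic mice that died early after pIpC it reports poor Brd9 depletion, which it reads as escape from deletion. Because no fall passed the test, the group is called by its label throughout.

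S100 proteins bind calcium through paired EF-hands, change shape and then dock onto target proteins. S100A8 and S100A9 form calprotectin, the main calcium-binding protein of the neutrophil cytosol, which is made in quantity as granulocytes mature and which acts on TLR4 and RAGE once released. S100A10 and S100A11 work inside the cell as partners of annexin A2 and annexin A1, S100A6 binds calcyclin-binding protein and annexins, and S100A4 binds nonmuscle myosin. S100A1 regulates calcium handling, and S100A13 takes part in the release of proteins that lack a signal peptide. Most S100 genes lie together in one cluster, which in the mouse is on chromosome 3.

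On GRCm38, 8 of the 10 genes lie in one block of 185 kb on chromosome 3, from 90511034 to 90695721, in the order S100a1, S100a13, S100a16, S100a3, S100a4, S100a6, S100a8 and S100a9. S100a11 and S100a10 form a second block of 44.2 kb, separated from the first by 2.82 Mb that hold the genes of the epidermal differentiation complex. S100a1 (minus strand, 90511034 to 90514392) and S100a13 (plus strand, 90514435 to 90524581) point away from each other and are separated by 42 bases. S100a8 (plus strand, 90668978 to 90670035) and S100a9 (minus strand, 90692632 to 90695721) point toward each other with 22596 bases between them. S100a6 (plus strand, 90612882 to 90624181) is the next member before S100a8, at a distance of 44796 bases.

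The windows in front of S100a8, S100a9 and S100a6 are shown because these 3 genes carried the change described next, and the window of S100a11 is shown as that of an abundant member which did not pass the test. Each run is the 250 bases before the transcription start that RefSeq gives on GRCm38.p6, written 5′ to 3′ on the strand of the gene. Capitals mark matches on either strand to 4 motifs. TTNNGNAA resembles the sites of C/EBP factors, which drive granulocyte genes. The letters GAGGAA hold the core bound by PU.1 and other ETS factors. The letters TATAAA are a TATA box, which places the start of transcription. The letters TGANTCA resemble AP-1 sites.
S100a8, chr3:90668821-90669070, plus strand: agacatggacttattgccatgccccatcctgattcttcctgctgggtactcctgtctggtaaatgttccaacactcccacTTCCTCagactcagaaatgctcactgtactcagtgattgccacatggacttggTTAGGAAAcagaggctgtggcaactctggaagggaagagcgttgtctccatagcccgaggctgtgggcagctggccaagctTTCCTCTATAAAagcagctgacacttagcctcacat
S100a9, chr3:90695722-90695971, minus strand: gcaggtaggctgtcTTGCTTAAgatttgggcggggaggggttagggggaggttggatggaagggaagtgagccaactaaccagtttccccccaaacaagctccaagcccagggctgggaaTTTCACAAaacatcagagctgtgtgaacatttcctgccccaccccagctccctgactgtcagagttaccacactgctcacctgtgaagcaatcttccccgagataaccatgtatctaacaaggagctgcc
S100a6, chr3:90612644-90612893, plus strand: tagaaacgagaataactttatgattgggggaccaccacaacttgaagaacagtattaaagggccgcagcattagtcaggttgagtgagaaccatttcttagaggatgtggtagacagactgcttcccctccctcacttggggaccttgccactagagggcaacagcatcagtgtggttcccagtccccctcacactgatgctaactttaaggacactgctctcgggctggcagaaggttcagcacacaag
S100a11, chr3:93520246-93520495, plus strand: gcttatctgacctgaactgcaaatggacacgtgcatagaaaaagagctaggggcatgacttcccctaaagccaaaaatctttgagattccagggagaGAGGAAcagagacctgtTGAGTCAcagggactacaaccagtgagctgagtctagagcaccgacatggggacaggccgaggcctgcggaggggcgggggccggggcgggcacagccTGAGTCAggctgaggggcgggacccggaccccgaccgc
The S100a8 window held 1 match to TTNNGNAA starting 117 bases before the start, 2 to GAGGAA at 170 and 36 bases and 1 to TATAAA at 30 bases. The last GAGGAA match ends where the TATAAA match begins, and no bases are shared. The S100a9 window held 2 matches to TTNNGNAA, at 236 and 130 bases, and none to the other motifs. The S100a6 window, whose gene changed with the other 2, held none of the 4. The S100a11 window held 1 match to GAGGAA and 2 to TGANTCA. Among 32851 RefSeq windows of the same length, TTNNGNAA was found in 36.8%, GAGGAA in 23.3%, TATAAA in 12.4% and TGANTCA in 6.75%, and a match describes these letters only. A window was given for 9 of the 10 members (not S100a10).

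S100a8, S100a9 and S100a6 were far higher in the libraries labelled pIpC. No member was lower (0 by limma, also 0 at an unadjusted p under 0.05 and 0 by edgeR or DESeq2), 4 did not pass the test and 3 had too few reads to be tested. The values are normalized counts, that is, reads per gene divided by 1 size factor per library, and the test was limma on log2(normalized count + 1) over the 15020 genes with a mean of at least 10, with a threshold of 0.1 on the p adjusted by Benjamini-Hochberg. The labels do not say that the 3 samples of a group are separate animals, so p-values measure the spread between these samples. Of the 7 tested members 3 were higher (42.9%), where 25.0% of all tested genes were higher and 20.4% were lower (45.3% in either direction, and 38.4% with a change of at least 1.5-fold). The same 3 members also passed the 1.5-fold limit. The median log2 fold change of the 7 was 0.75, and that of all tested genes was 0.01.

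S100a9 (ENSMUSG00000056071) stood at 4028, 6826 and 10684 in the PBS libraries, given in the order of replicates 1, 2 and 3 here and throughout. In the libraries labelled pIpC it stood at 568509, 498642 and 507731. The groups are far apart, and PBS replicate 3 was the highest of its group. The mean went from 7179 ± 3342 to 524961 ± 37987 (SD, n = 3 each), a log2 fold change of 6.30 (SE 0.36, limma adjusted p = 4.61e-05), the highest of the family and rank 149 of all 15020 tested genes.

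S100a8 (ENSMUSG00000056054), the other chain of calprotectin, had 2636, 4625 and 9855 in the PBS libraries and 315077, 287198 and 298192 in the libraries labelled pIpC. PBS replicate 3 was again the highest PBS library, and the groups did not overlap. The means were 5705 ± 3728 and 300156 ± 14043, a log2 fold change of 5.93 (SE 0.45, limma adjusted p = 0.000128).

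S100a6 (ENSMUSG00000001025), or calcyclin, a gene of proliferating and differentiating cells, was low in the PBS libraries at 67.5, 57.7 and 128 and stood at 3480, 3989 and 2871 in those labelled pIpC. As for the calprotectin genes, the lowest library labelled pIpC was many times the highest PBS library. The means were 84.4 ± 38.0 and 3447 ± 560, a log2 fold change of 5.41 (SE 0.31, limma adjusted p = 4.85e-05). As linear folds from the log2 fit, S100a9 rose 78.8-fold, S100a8 60.8-fold and S100a6 42.5-fold, the last from a far lower starting level. These 3 were the only members whose groups did not overlap, where 30.5% of all tested genes lay wholly higher in the libraries labelled pIpC and 56.8% were separate in either direction.

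**Figure D1:**
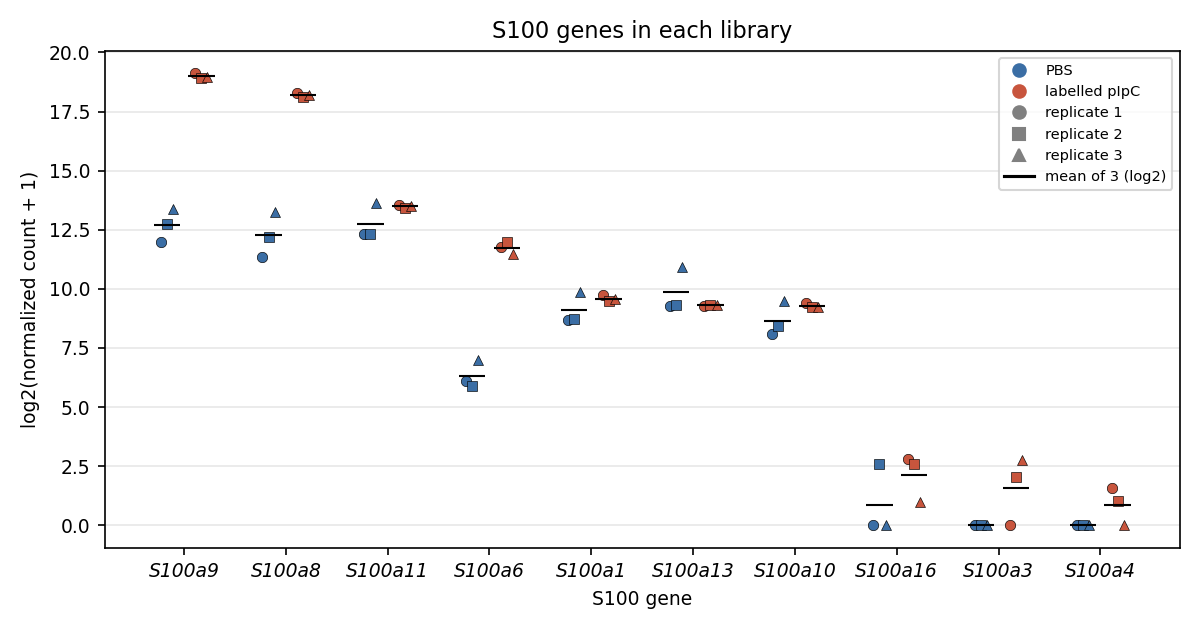
Normalized counts of the 10 S100 genes on the log2(normalized count + 1) scale (vertical axis) by gene (horizontal axis, ordered by the mean in the libraries labelled pIpC); each point is 1 library, its shape the replicate, and the line the mean of the 3 log2 values. S100a9, S100a8 and S100a6 are separated by group, S100a11, S100a1 and S100a10 overlap only through PBS replicate 3 (blue triangle), S100a13 overlaps with or without it, and S100a16, S100a3 and S100a4 lie near 0.

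The calprotectin genes took 0.0595% ± 0.0255 of the recovered reads of a PBS library together and 3.59% ± 0.191 of those of a library labelled pIpC (SD, n = 3 each). In each library labelled pIpC S100a9 was the second most counted gene of the table, whereas it ranked 876, 459 and 300 in the PBS libraries. Of all reads on the 10 members, S100a8 and S100a9 held between 50.9% and 63.4% in the PBS libraries and between 97.9% and 98.1% in the libraries labelled pIpC. The 10 most counted genes of a library together took 5.55% to 5.85% of PBS reads and 11.64% to 11.97% of reads in the libraries labelled pIpC.

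Per kilobase of the longest transcript, which allows genes to be compared, the PBS libraries were led by S100a11 (14875 ± 8468 normalized counts per kb), S100a9 (13833 ± 6440) and S100a8 (11456 ± 7487), and these 3 did not differ beyond their spread. S100a13 (1506 ± 1072), S100a1 (869 ± 441) and S100a10 (641 ± 343) followed and also overlapped one another, and S100a6 was the lowest tested member at 108 ± 48.5. In the libraries labelled pIpC the order was S100a9 (1011490 ± 73193), S100a8 (602722 ± 28198), S100a11 (22654 ± 891), S100a6 (4402 ± 715), S100a1 (1135 ± 107), S100a10 (917 ± 68.1) and S100a13 (888 ± 20.6). Only S100a10 and S100a13 were within their spread of each other there. S100a6 was thus the lowest tested member in PBS and the fourth in the libraries labelled pIpC.

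S100a11, the annexin A1 partner, was abundant in every library: 5058, 5148 and 12598 in PBS and 11892, 11055 and 11783 in the libraries labelled pIpC. PBS replicate 3 was above all other libraries, and without it the groups would be separate. With all 6 libraries the log2 fold change was 0.75 (SE 0.35, limma adjusted p = 0.145), which did not pass. S100a10, the light chain of the annexin A2 tetramer, showed the same arrangement: 270, 340 and 707 against 682, 596 and 607, with a log2 fold change of 0.64 (SE 0.35, limma adjusted p = 0.192). For S100a1 the values were 405, 427 and 932 in PBS and 848, 706 and 751 in the libraries labelled pIpC (log2 fold change 0.49, SE 0.32, limma adjusted p = 0.275). In all 3 genes PBS replicates 1 and 2 lay below, and PBS replicate 3 above, every library labelled pIpC.

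S100a13, whose product helps to export proteins without a signal peptide, was the exception among the abundant members. It had 623, 646 and 1962 in the PBS libraries and 618, 643 and 644 in the libraries labelled pIpC. Of the 6 libraries 5 thus agreed closely and PBS replicate 3 alone was about 3.09 times the mean of the other PBS libraries. The log2 fold change with all libraries was -0.54 (SE 0.43, limma adjusted p = 0.362), and without PBS replicate 3 it was 0.0010 (SE 0.081, limma adjusted p = 0.993).

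PBS replicate 3 differed from the other PBS libraries along transcript length. The median of its log2 level minus the mean of PBS replicates 1 and 2 was 0.92 over the 1881 tested genes with a longest transcript of up to 1000 bases, 0.63 over 2655 genes of 1000 to 2000 bases, 0.08 over 5646 genes of 2000 to 4000 bases and -0.53 over 4795 longer genes. All 7 tested members are short, with longest transcripts of 498 (S100a8) to 783 bases (S100a6). Their excess in PBS replicate 3 ran from 1.02 (S100a6) to 1.63 (S100a13) on the log2 scale, between the 54.3rd and the 83.3rd percentile of the short genes.

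**Figure D2:**
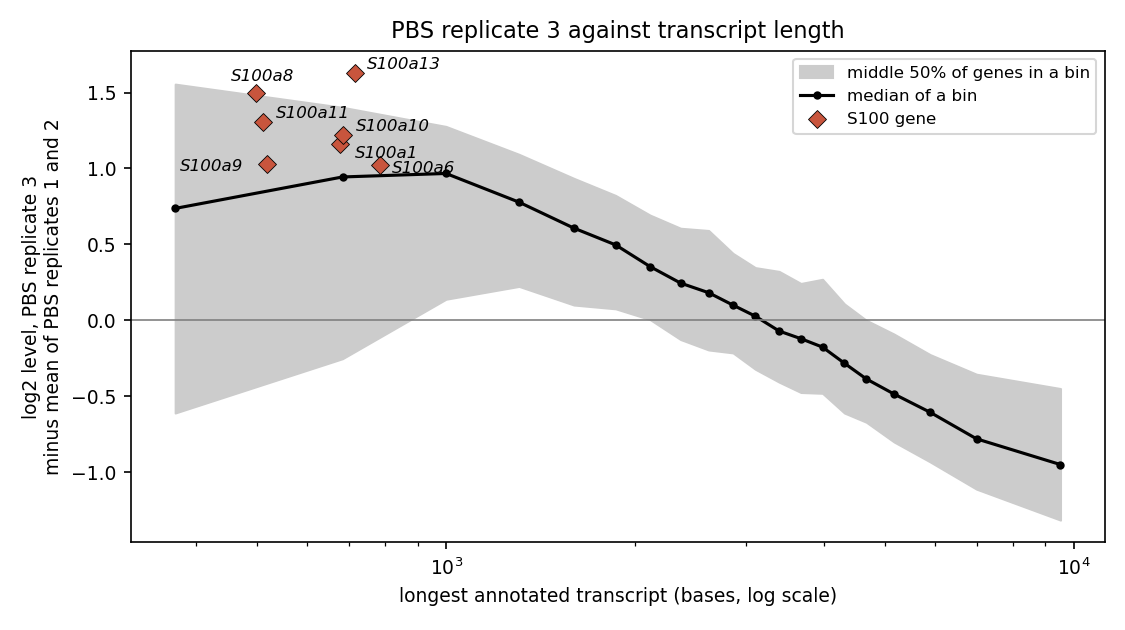
Log2 level in PBS replicate 3 minus the mean of PBS replicates 1 and 2 (vertical axis) against the longest annotated transcript in bases (horizontal axis, log scale); the black line joins medians of 20 bins of tested genes, the grey band holds the middle 50% of each bin, and diamonds are the 7 tested S100 genes. The bin medians fall with length from above 0.9 near 1000 bases to below -0.9 for the longest genes, and the S100 genes lie at 1.02 to 1.63.

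Without PBS replicate 3, 6 of the 7 tested members were higher in the libraries labelled pIpC, where 34.5% of all tested genes were higher. S100a11 then had a log2 fold change of 1.18 (SE 0.06, limma adjusted p = 9.17e-07), S100a10 of 1.05 (SE 0.12, limma adjusted p = 0.000112) and S100a1 of 0.88 (SE 0.10, limma adjusted p = 9.68e-05). Keeping all 6 libraries and subtracting from each its own dependence on transcript length gave nearly the same: 1.19 for S100a11, 1.06 for S100a10 and 0.91 for S100a1, with 6 of 7 members higher where 26.9% of all tested genes were (52.4% in either direction). That S100a1, S100a10 and S100a11 did not pass with all libraries thus turns on PBS replicate 3, while S100a8, S100a9 and S100a6 passed with and without it, at 6.42, 6.64 and 5.75 without.

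**Figure D3:**
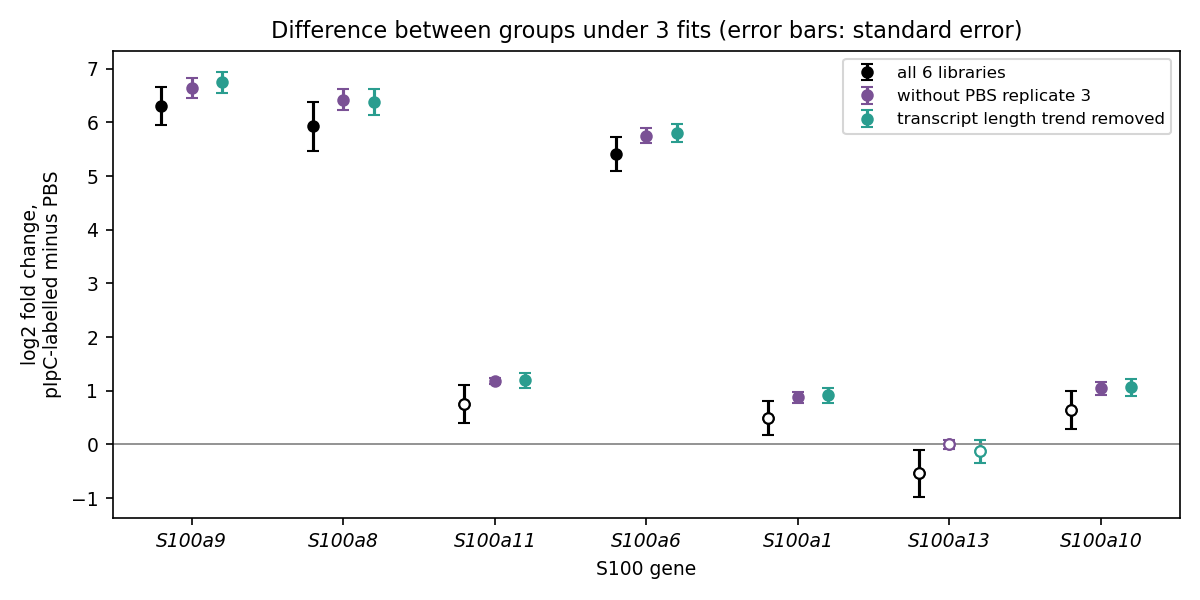
Log2 fold change, libraries labelled pIpC minus PBS (vertical axis, error bars are standard errors), for the 7 tested S100 genes (horizontal axis) with all 6 libraries, without PBS replicate 3, and with the dependence on transcript length subtracted per library; filled points have an adjusted p under 0.1. S100a9, S100a8 and S100a6 lie above 5 in each fit, S100a11, S100a1 and S100a10 are open with all 6 libraries and filled otherwise, and S100a13 is open in all 3.

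The 3 remaining members were barely counted. S100a4, known as a marker of fibroblasts, T cells and mature myeloid cells, had 0 reads in each PBS library and 2, 1 and 0 reads in the libraries labelled pIpC, at or under a floor of 3 reads in every library. S100a3 had 0 reads in each PBS library and 0, 3 and 6 in those labelled pIpC. S100a16, a widely expressed member, had 0, 5 and 0 reads in PBS and 6, 5 and 1 in those labelled pIpC. The S100a4 count is uncertain, since 302 of its 584 exon bases (51.7%) are also exon of Gm42674, an annotated gene with 0 reads in all 6 libraries. Of the protein-coding genes that share at least 50% of their exon bases with another gene, 449 of 618 (72.7%) had a mean under 10, against 7658 of 15536 (49.3%) that share none. S100a3 shares 4.61% of its exon bases with the same gene, and the other members share none.

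Members that are partners or neighbours were next set against each other within each library, where the size factor cancels. The ratio of S100a8 to S100a9 was 0.655, 0.677 and 0.922 in the PBS libraries and 0.554, 0.576 and 0.587 in those labelled pIpC. The 2 chains of calprotectin thus kept a ratio of the same order while both rose, with a log2 difference of -0.38. The ratio of S100a10 to its partner Anxa2 was 0.130, 0.185 and 0.222 in PBS and 0.0821, 0.0681 and 0.0719 in those labelled pIpC, a log2 difference of -1.25. That of S100a11 to Anxa1 was 0.340, 0.313 and 0.484 in PBS against 0.176, 0.155 and 0.170, a log2 difference of -1.16. In each of these 3 ratios every library labelled pIpC was below every PBS library, and PBS replicate 3 was the highest library. Over left-out libraries the log2 differences ranged from -0.47 to -0.22 for S100a8/S100a9. They ranged from -1.46 to -1.07 for S100a10/Anxa2 and from -1.28 to -0.97 for S100a11/Anxa1. The exact permutation p was 0.1 for each (two-sided, also 0.1 after adjustment over the 3), the smallest that this test can give for 3 against 3, so it cannot reach 0.05.

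The divergent pair S100a1 and S100a13 was looked at in the same way after its values had been seen, and is given with no test. Its ratio was 0.650, 0.661 and 0.475 in the PBS libraries and 1.37, 1.10 and 1.17 in those labelled pIpC. S100a13 was thus the more counted of the pair in the PBS libraries and S100a1 in the others, although the starts of these genes are 43 bases apart.

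**Figure D4:**
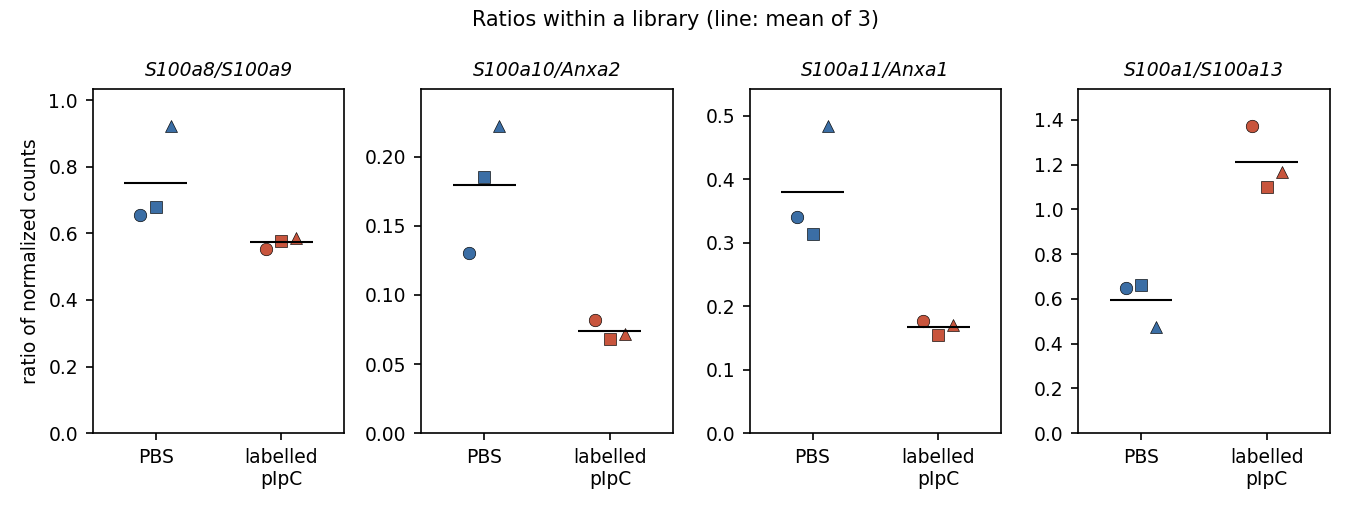
Ratio of normalized counts of 2 genes within a library (vertical axes, each starting at 0) for PBS and for libraries labelled pIpC; each point is 1 library, its shape the replicate as in the plot of counts by gene, and the line the mean of 3. The first 3 ratios are lower in the libraries labelled pIpC and S100a1/S100a13 is higher, at 1.10 to 1.37 against 0.475 to 0.661.

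The partners themselves moved in both directions. Annexins are calcium-dependent membrane-binding proteins. Of 12 listed 9 were tested, of which 4 were higher and 4 lower (88.9% in either direction), with a median log2 fold change of 0.19. Over all tested genes 45.3% passed in either direction. Anxa1, a glucocorticoid-induced inhibitor of inflammation, had 14889, 16432 and 26041 in PBS and 67413, 71480 and 69474 in the libraries labelled pIpC (log2 fold change 1.91, SE 0.24, limma adjusted p = 0.00111). Anxa2, which tethers plasminogen at the cell surface together with S100A10, had 2072, 1838 and 3182 against 8300, 8749 and 8442 (1.89, SE 0.21, limma adjusted p = 0.000655). Their fold changes exceeded those of S100a11 and S100a10, which is what the ratios within a library show. Anxa7 (1.27) and Anxa11 (0.83) were the other annexins that rose, Anxa4 (-1.26), Anxa5 (-0.75), Anxa6 (-1.17) and Anxa9 (-1.49) fell, and Anxa3 had a log2 fold change of 0.19 (limma adjusted p = 0.546).

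Of 5 other intracellular partners 2 rose and 0 fell (40%), near the 45.3% of all tested genes that passed in either direction. Myh9, the heavy chain of nonmuscle myosin IIA and a target of S100A4, had 18811, 17834 and 7752 in PBS and 32966, 38184 and 36737 in those labelled pIpC (log2 fold change 1.38, SE 0.35, limma adjusted p = 0.0208). Ahnak, a giant scaffold protein bound by S100A10 with annexin A2, had a log2 fold change of 1.39 (SE 0.48, limma adjusted p = 0.0613). Its log2 fold change was 0.84 without PBS replicate 3 and 0.76 with the length trend removed, and it passed in both. With any 1 library labelled pIpC left out, or at a threshold of 0.05, Ahnak did not pass. Both Myh9 and Ahnak have long transcripts and were lowest in PBS replicate 3, the reverse of the S100 genes. Cacybp, the calcyclin-binding protein to which S100A6 docks, had a log2 fold change of -0.41 (limma adjusted p = 0.270), Atp2a2, the calcium pump that S100A1 regulates, one of -0.19 (limma adjusted p = 0.558), and Sugt1 one of -0.00022 (limma adjusted p = 1.00).

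Of 8 genes for receptors of extracellular S100 proteins and their signalling, 4 rose and 1 fell (62.5%), with a median log2 fold change of 0.42. Over all tested genes 25.0% were higher and 45.3% passed in either direction. Ager, which encodes RAGE, had 69.2, 58.7 and 114 in PBS and 189, 239 and 241 in the libraries labelled pIpC (log2 fold change 1.503, limma adjusted p = 0.00691). Tlr4, the calprotectin receptor, had 380, 430 and 235 against 753, 970 and 688 (1.23, limma adjusted p = 0.0104). Myd88, the adaptor of TLR4, rose by less, with a log2 fold change of 0.58 (limma adjusted p = 0.0197). Cd36, a scavenger receptor for fatty acids that calprotectin carries, had 3.46, 7.09 and 2.26 against 81.8, 64.4 and 76.4 (3.93, limma adjusted p = 0.000463).
The TLR4 co-receptor Cd14 went the other way, with 376, 318 and 438 against 215, 193 and 113 (-1.16, limma adjusted p = 0.0176). Ly96, the MD-2 subunit on TLR4, had a log2 fold change of -0.84 (limma adjusted p = 0.141), and Bsg and Nptn, surface proteins that bind S100A9 or S100A8, had -0.66 and 0.27 (limma adjusted p = 0.103 and 0.109).

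**Figure D5:**
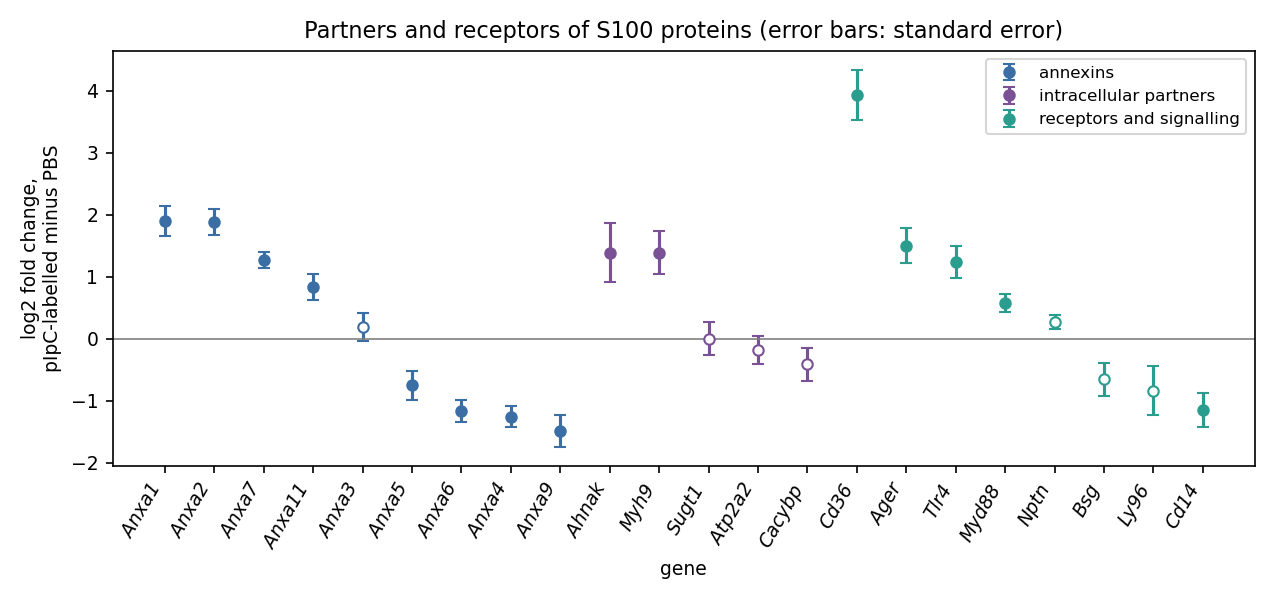
Log2 fold change, libraries labelled pIpC minus PBS (vertical axis, error bars are standard errors), for tested annexins, other intracellular partners, and receptors and signalling genes of S100 proteins (horizontal axis); filled points have an adjusted p under 0.1. Anxa1, Anxa2 and Cd36 are the highest of the annexins and receptors, and Anxa9 lies lowest at -1.49.

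Among 18 other EF-hand calcium proteins 5 rose and 0 fell by limma (0 fell also at an unadjusted p under 0.05 and by edgeR or DESeq2), with a median log2 fold change of 0.14. Rcn1, a calcium-binding protein of the endoplasmic reticulum, rose by 2.34 (limma adjusted p = 6.8e-05), Lcp1, the actin-bundling protein of leukocytes, by 1.46, Efhd2 by 1.11, Sri, or sorcin, by 0.98 and Capn1, the catalytic subunit of a calpain, by 0.90 on the log2 scale. Myl12a, a myosin light chain gene, was the lowest at -0.34 (limma adjusted p = 0.407). Calm2 and Calm3, which encode calmodulin, did not pass, at -0.23 and -0.00011. The share that passed, 27.8% in either direction, is below the 45.3% of all tested genes, and without PBS replicate 3 it was 11 of 18, where 65.1% of all tested genes passed.

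Of 8 further genes named S100, 7 were in the table and 1 was tested. S100pbp, which encodes a nuclear protein that binds S100P and is no S100 protein itself, had 441, 336 and 259 in PBS and 537, 621 and 668 in those labelled pIpC (log2 fold change 0.84, SE 0.22, limma adjusted p = 0.0241). S100a7a had 0 reads in each PBS library and 7, 6 and 3 in those labelled pIpC. S100a14 had 5, 1 and 1 reads against 3, 0 and 7, S100a5 and S100z had 0 in all 6 libraries, and S100b and S100g had at most 4 reads in any library.

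Few genes close to the members could be tested. Within 100 kb of a member lie 27 other genes, of which 6 were tested, 0 were higher and 1 was lower by limma at an adjusted p under 0.1. Over all tested genes 25.0% were higher and 20.4% lower, and 6 genes are too few to be told from these shares. At an unadjusted p under 0.05, and by edgeR or DESeq2, 0 were likewise higher. Just outside the first block, Npr1 had the highest log2 fold change of these genes, 1.46 (SE 0.73, limma adjusted p = 0.165), with 10, 1 and 8 reads in PBS and 9, 23 and 16 in those labelled pIpC. Ints3, Ilf2, Snapin and Chtop beside it had log2 fold changes of 0.21, -0.12, -0.31 and -0.18. Tchh, which encodes trichohyalin of hair follicles and lies before S100a11, had 748, 644 and 366 in PBS and 24.0, 45.0 and 16.4 in those labelled pIpC (-4.37, SE 0.43, limma adjusted p = 0.000359). Pglyrp4, an antibacterial protein gene beyond S100a9, had 2, 0 and 0 reads against 12, 15 and 17, too few to be tested. Of the 107 genes between the first and the last member, 94 had 0 reads in all PBS libraries and 93 in all libraries labelled pIpC. Of the 4 tested, 1 was higher (Gm4202, 0.82) and 2 were lower.

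Profiles were compared by the root mean square of the log2 differences from each gene's own mean over the 6 libraries, among 10486 genes, as a description with no test. S100a8 was nearest to Orm1, an acute-phase protein (0.182), followed by S100a9 (0.246) and Tspan13 (0.281). S100a9 was nearest to Slfn1 (0.162), Lcn2, the iron-binding lipocalin of neutrophil granules (0.212), and Cd74, the invariant chain (0.217). S100a6 was nearest to Hoxb4 (0.151), Tceal8 (0.166) and Il1r2, a decoy receptor for interleukin-1 (0.194), and was farther from S100a8 (0.451) and S100a9 (0.549). The genes compared had a mean of at least 100 over all 6 libraries. Apart from S100a9 and Lcn2, the nearest genes above stood below 100 in every PBS library and reached that mean through the others. Hoxb4 had 8.65, 6.07 and 12.4 in PBS and Tspan13 2.60, 3.04 and 9.05, so these matches rest on few PBS reads.
S100a1, S100a10 and S100a11 formed a second group, at 0.108 to 0.146 from one another. Nearest to S100a1 were Rabac1 (0.0685), Rnaseh2c (0.0685) and Txndc17 (0.0768), and nearest to S100a10 were Mrpl47 (0.0619), Mettl26 (0.0829) and Zfand2b (0.0890). Nearest to S100a11 were 1810058I24Rik (0.0469), Bin1 (0.0748) and 1810037I17Rik (0.0853), and nearest to S100a13 were Asnsd1 (0.0516), Stx8 (0.0610) and Mrps24 (0.0637). In all 12 of these genes PBS replicate 3 was the highest PBS library. The matching included that library, so this follows from how the genes were picked.

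Markers of several cell types also differed between the groups, where 25.0% of all tested genes were higher and 20.4% lower. All 12 neutrophil maturation genes listed besides S100 genes rose by a median of 6.41 on the log2 scale, from 0.94 for Csf3r to 8.23 for Ly6g, and their summed normalized count ranged from 21795 to 29427 in PBS and from 1283220 to 1323540 in those labelled pIpC. Of 4 primary granule genes, which mark promyelocytes, 2 were higher (Mpo by 4.74, Ctsg by 0.44), and Elane had a log2 fold change of -0.45. All 11 tested erythroid genes were higher, from 3.26 for Alas2 to 9.44 for Car1 on the log2 scale (summed level 23.4 to 38.5 against 5473 to 7645, with Slc4a1 at 0 reads in PBS). All 10 B cell genes were higher too, from 1.25 for Cd79b to 7.41 for Pax5 (137 to 304 against 1430 to 2741, with Ms4a1 at 0 reads in PBS), as were all 8 tested of 11 T and NK cell genes, from 2.19 for Cd4 to 4.79 for Ncr1 (192 to 328 against 3977 to 4607). Of 13 monocyte and macrophage genes 9 were higher and 3 lower (Adgre1, or F4/80, at -3.80, Vcam1 at -0.90 and Cd68 at -0.71), with Mrc1 the highest at 4.55 and a summed level of 39268 to 39553 against 39344 to 43797. Of 9 genes tied to MLL-AF9 leukemia 7 were lower, Hoxa10 by the most (-6.38), and 2 higher, Mef2c and Mecom (summed level 15331 to 16268 against 1882 to 2027). Kit, the receptor of immature cells, had 6265 ± 2063 in PBS and 4362 ± 217 in those labelled pIpC (SD, n = 3 each; log2 fold change -0.46, limma adjusted p = 0.213), and Cd34 fell by 1.40 on the log2 scale (limma adjusted p = 0.000227). Most of the listed leukemia genes were thus lower, and the listed neutrophil, erythroid and lymphoid genes that were tested higher, in the libraries labelled pIpC. A PBS mean of at least 10 was reached by only 1 erythroid, 2 B cell and 1 T and NK cell genes. In the libraries labelled pIpC 11, 10 and 9 reached it. Most genes of these 3 lists thus entered the test only through the libraries labelled pIpC, so that all were higher was largely set by the filter. The part of these cells in the S100 values was not tested, and in bulk RNA more cells of a type and more RNA per cell cannot be told apart.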

How the data were processed

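The samples were 3 marrow RNA-seq libraries labelled PBS and 3 labelled pIpC. The authors deposited 1 table of normalized counts, treated here as a signal: gene counts divided by 1 size factor per library. The sources differ on how it was made. The submitters' processing notes name HISAT2 (2.2.1), SAMtools, featureCounts from Subread, edgeR and GRCm38, the labels name unstranded poly(A) libraries of GFP+ cells and lethal irradiation, and the study's methods describe a STAR and RSEM pipeline, stranded libraries, c-Kit+ cells and sublethal irradiation. Which holds cannot be told from the table. Without strand, reads on bases shared by overlapping genes cannot be assigned by strand. Such reads, and multi-mapping reads, may have been dropped or split.

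Dividing each deposited value by what 1 read is worth in its library gave whole numbers (tolerance 0.01 read, 100% of values), which recovered 19277439 to 22378154 reads per PBS library and 22348517 to 23586722 per library labelled pIpC. Low counts limit only S100a3, S100a4 and S100a16, and intervals and floors (3 reads) cover counting error only. Of 55487 genes 55227 had a symbol and 55141 a transcript length in GENCODE M21 on GRCm38. No column was left out (0 columns of other samples).

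The main test was limma (3.58.1, R 4.3.3), fitted to log2(normalized count + 1) with its trend option, so that folds of low genes are understated, for genes with a mean of at least 10, at a Benjamini-Hochberg adjusted p under 0.1. Ratios and Brd9 had exact permutation tests. The study's methods name DESeq2, which with edgeR was run as an alternative on recovered reads. Named by rule were the members, Brd9, the further S100 genes with any read, the genes with the highest and lowest log2 fold change in each list, ratio partners, cell type markers at 0 reads in a group apart from 1 not reported here, and the 3 nearest profiles per member. Other genes were named after their values were seen. Members and lists were chosen with earlier results of these data known. Alternatives were pseudocounts of 0.1 and 10, a mean limit of 50 or none, quantile or median scaling, removal of length or GC trends, a replicate block, each library left out, no intensity trend, edgeR (4.0.16), DESeq2 (1.42.0) and a threshold of 0.05. Scripts were tested on simulated data. Same-numbered libraries deviated from their group means with correlations of -0.117, 0.143 and 0.0405, so the numbers do not pair the samples. No 2 libraries of a group were alike within sampling noise.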

Additional observations from a re-analysis of the deposited data

How the results depend on the processing

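S100a8, S100a9 and S100a6 kept their direction and their call under each alternative run, with log2 fold changes over left-out libraries of 5.47 to 6.42, 5.94 to 6.64 and 5.18 to 5.75. With the length trend removed, with and without the replicate block, S100a1 stood at 0.91, S100a10 at 1.06, S100a11 at 1.19 and Brd9 at -0.013, and 6 members passed. S100a11 also passed under quantile normalization, at 0.81. Over left-out libraries S100a1 ranged from 0.28 to 0.88, S100a10 from 0.35 to 1.05, S100a11 from 0.52 to 1.18, S100a13 from -0.83 to 0.0010 and the members that passed from 3 to 6, the upper end each time being without PBS replicate 3. Myl12a, at -0.34 with all libraries, ranged from -0.53 to 0.026, again without that library.

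Other counts that moved by over 1.5 times were the further S100 genes (3 with no filter), the intracellular partners (1 at 0.05, and 1 to 4 over left-out libraries), the receptors (8 under DESeq2), the T and NK cell markers (1 with a mean of at least 50, which leaves fewer genes) and the EF-hand genes (5 to 11 over left-out libraries). Of the primary granule markers 1 passed with the replicate block, alone or with GC removal, with edgeR and TMM factors, with no filter, with no intensity trend and at 0.05, and 1 to 3 over left-out libraries. Beyond the constructions named, the cause was not tested. The replicate block, with numbers that do not pair the samples, gave 6095 genes changed against 6808, and it changed no call of a member. Quantile normalization moved the median of all genes to -0.12, against 0.01. The genes changed numbered 4650 to 9783 over left-out libraries. Transcript length and PBS replicate 3 limit the 4 members with smaller differences, and 3 samples per group limit the rest.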
